A study of Mus musculus with 2 samples.

Results

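Genes of oxidative phosphorylation were followed in sorted spinal microglia through the messenger RNAs of both genomes that build the respiratory chain. The members were the genes whose symbols begin with Nduf (complex I), Uqcr (complex III), Cox4 to Cox8 (complex IV) or Atp5 (complex V, ATP synthase), together with the genes written with the prefix mt-, and names marked as pseudogenes were left out. This rule found 102 of the 32285 genes counted, of which 13 were encoded by the mitochondrial genome and 89 by the nucleus. Complexes of nuclear-encoded members were assigned by symbol alone, not by where each protein sits, and Ndufa4 was therefore counted with complex I. Microglia came from the lumbar spinal cord of male mice aged 8 to 10 weeks, and the gate CD45lo, CD11b+, CX3CR1+ was used to sort them. The control library came from Eif4ebp1fl/fl mice, which the labels call WT. The 4E-BP1–cKO library came from Eif4ebp1fl/fl:TMEM119CreERT2 mice, in which a Cre recombinase under the microglial Tmem119 promoter is switched on by 4-OHT, given from P4 to P9, to remove the translational repressor 4E-BP1 from microglia. Whether control mice also received 4-OHT, and how many mice stood behind each library, was not given in the sources used here. There was 1 library per genotype, so the values below have no replicate check, no p-value was computed, and the 95% intervals cover counting error only.

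Oxidative phosphorylation moves electrons through complexes I to IV of the inner mitochondrial membrane, and complex V uses the resulting proton gradient to make ATP. Complexes I, III, IV and V are built from proteins of both genomes. The mitochondrial genome encodes the hydrophobic cores, its RNA is made as long transcripts that are cut into single messages, and these are translated inside the organelle. The nuclear-encoded subunits are translated in the cytosol and imported. Complex II is wholly nuclear-encoded and lies outside the rule, as does cytochrome c. Microglia, the resident macrophages of the central nervous system, use oxidative phosphorylation in the resting state.

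Droplet sequencing from the 3′ end of the RNA gave counts of unique molecular identifiers (UMIs), in which each captured molecule is counted once. Levels are therefore given as counts per 1000000 UMIs (CPM) without division by gene length. After barcodes with at most 300 detected genes or with at least 5% of UMIs on mt- genes were left out, 1147 control cells (4803562 UMIs) and 445 4E-BP1–cKO cells (1734332 UMIs) remained, and the libraries shared 0 barcodes. The targeted gene Eif4ebp1 stood at 19.8 CPM in control and 29.4 CPM in 4E-BP1–cKO cells. Because the conditional allele is built around exon 2 and reads come from the 3′ end, these counts do not check the deletion. The 9 microglial markers took 1.21% of control and 1.20% of 4E-BP1–cKO UMIs, but Tmem119, whose promoter drives the Cre recombinase, was at 433 CPM in control and 142 CPM in 4E-BP1–cKO cells. Across 11 lists of markers of other cell types, between 0 and 5 cells of a library carried at least 3 markers of any 1 type, most often those of oligodendrocytes (5 control cells, 1 4E-BP1–cKO cell).

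As a group, the mitochondrial-encoded messages were more abundant than the nuclear-encoded ones. The 13 mt- genes took 1.09% of control UMIs (95% interval 1.08 to 1.10) and 0.948% of 4E-BP1–cKO UMIs (0.934 to 0.963), whereas the 89 nuclear-encoded members together took 0.428% (0.423 to 0.434) and 0.455% (0.445 to 0.465). The most abundant message was mt-Co3, a core subunit of complex IV, at 1716 CPM in control and 1503 CPM in 4E-BP1–cKO cells. The mitochondrial message with the fewest UMIs was mt-Nd6, the single subunit read from the opposite strand of the mitochondrial genome, at 70.8 and 57.1 CPM. Whether it was captured as well as the other messages was not tested. Among nuclear-encoded members the highest was Cox4i1, which is needed to assemble complex IV, at 191 and 224 CPM. It was followed by the small complex IV subunits Cox7c, at 175 and 208 CPM, and Cox8a, at 163 and 176 CPM. In complex V the highest was Atp5g2, 1 of the 3 genes for the rotor ring, at 138 and 154 CPM, and in complex III it was the hinge protein gene Uqcrh, at 128 and 165 CPM. Complex I was spread over many messages of low level. Its most abundant member by UMIs over both libraries was the accessory subunit Ndufa2, at 67.5 and 74.4 CPM. In 4E-BP1–cKO cells Ndufc2, at 79.0 CPM, and Ndufa4, at 77.3 CPM, stood above it. The 7 conserved core subunits of complex I stood between 18.3 CPM (Ndufv1) and 41.0 CPM (Ndufs7) in the control library.

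Subunits with tissue-specific forms were found almost only in the widely expressed form. Cox4i1 had 1307 UMIs over both libraries against 10 for Cox4i2, Cox6a1 had 394 against 29 for Cox6a2, Cox6b1 had 571 against 10 for the testis form Cox6b2, and Cox7a2 had 418 against 5 for the muscle form Cox7a1. Cox8b, Cox8c, Cox7b2 and Ndufa4l2 had no UMI, which allows a level of up to 0.625 CPM in control and 1.73 CPM in 4E-BP1–cKO cells at 3 counts. The rotor ring genes were an exception, since Atp5g2, Atp5g1 and Atp5g3 were all well above this floor, at 138, 46.8 and 39.3 CPM in the control library. In all, 95 members had at least 20 UMIs over both libraries, 13 of them mitochondrial-encoded, and 69 had at least 200.

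In the sums over all kept cells, the 2 genomes differed between the libraries in opposite directions by a small amount. Mitochondrial-encoded UMIs were 0.870 times as frequent in the 4E-BP1–cKO library as in the control library (0.855 to 0.885), and 12 of the 13 genes were lower there, with mt-Nd4 as the exception. Of all 11784 genes with at least 20 UMIs, 5169 were higher in the 4E-BP1–cKO library. The summed nuclear-encoded UMIs were 1.06 times as frequent (1.04 to 1.09), with ratios of 1.12 for complex IV (1.06 to 1.17), 1.10 for complex III (1.01 to 1.19), 1.04 for complex V (0.988 to 1.09), 1.06 for the accessory and 0.976 for the core subunits of complex I, and 0.902 for the assembly factors of complex I. Intervals for the last 2 groups included no difference. The nuclear-encoded direction was not the same within classes of cells. Cells in which ribosomal protein genes took under 3% of UMIs, called ribosome-poor here, gave a ratio of 0.901 (0.839 to 0.967), and cells at 3% or more, called ribosome-rich, gave 1.02 (0.991 to 1.05). The 4E-BP1–cKO library held a larger part of ribosome-rich cells, 234 of 445 against 490 of 1147 in the control library, and ribosomal proteins took 6.11% of its UMIs against 5.15%. The mitochondrial-encoded ratio was 0.830 (0.805 to 0.856) in ribosome-poor and 0.894 (0.875 to 0.913) in ribosome-rich cells, so that its direction was the same in both classes. The 17 early genes of tissue handling, taken in sum, differed more between the libraries than either genome, at 2.51% of control and 3.25% of 4E-BP1–cKO UMIs (1.29-fold, 1.28 to 1.31). Of these 17 genes, 14 were higher in the 4E-BP1–cKO library, 5 of them more than 1.5-fold, beside 4.32% of the 11784 genes. Another 2 were more than 1.5-fold lower, which is near the 11.3% of all genes and no result about this list. They were Hspa1b, at 1452 CPM in control and 562 CPM in 4E-BP1–cKO cells, and Hspa1a, at 1110 and 717 CPM. The part of the early genes in these differences was not tested.

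Of the 95 members with at least 20 UMIs, 0 were more than 1.5-fold higher in the 4E-BP1–cKO library, beside 4.32% of the 11784 genes at this depth, and 3 were more than 1.5-fold lower, beside 11.3%. Of the 69 members with at least 200 UMIs, 0 were higher, beside 1.19% of genes at that depth, and 1 was lower, beside 3.21%. The 3 lower members were mt-Atp8 and the complex I assembly factors Ndufaf1 and Ndufaf5. Ndufaf1 had 24 control and 2 4E-BP1–cKO UMIs, a ratio of 0.231 (0.0264 to 0.930), and Ndufaf5 had 20 and 2, a ratio of 0.277 (0.0314 to 1.14). The median log2 ratio was 0.08 over the 82 nuclear-encoded and -0.21 over the 13 mitochondrial-encoded members, beside -0.05 over all genes at this depth. Among nuclear-encoded members with at least 200 UMIs the ratios nearest to the upper limit belonged to Ndufb5, at 28.1 CPM in the control and 39.8 CPM in the 4E-BP1–cKO library (1.42-fold, 1.04 to 1.91), Atp5g1 (1.37-fold, 1.08 to 1.72), Ndufb3 (1.31-fold, 0.987 to 1.72), Uqcrh (1.28-fold, 1.11 to 1.48) and Ndufb8 (1.27-fold, 0.930 to 1.73). The lowest was Atp5l, which encodes subunit g of ATP synthase, at 107 and 84.8 CPM (0.791-fold, 0.654 to 0.951). Ndufv1, the flavin-binding core subunit at which NADH is oxidized, stood at 18.3 and 12.1 CPM, a ratio of 0.661 (0.390 to 1.07). With the pseudocount its log2 ratio of -0.56 stayed just inside the limit, so it was not called. The ratio was 1.26 (0.402 to 3.38) in cells under 3% ribosomal share and 0.520 (0.277 to 0.916) in cells at 3% or more.

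**Figure D1:**
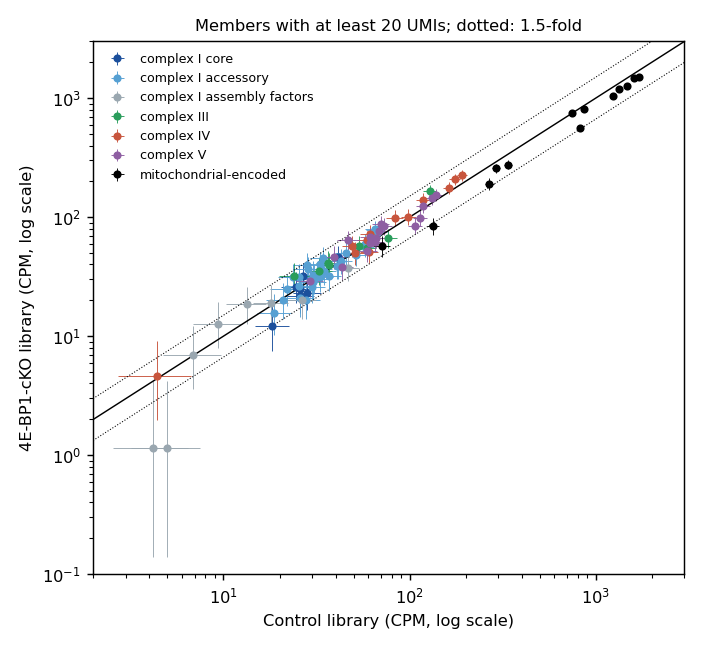
Level of each member with at least 20 UMIs in the control library (x axis, CPM, log scale) and the 4E-BP1–cKO library (y axis, CPM, log scale), colored by role, with 95% Poisson intervals as bars, the line of equal level and dotted lines at 1.5-fold. Mitochondrial-encoded genes (black) lie at or below the line of equal level except mt-Nd4, which lies just above it (747 and 753 CPM), mt-Atp8 lies below the lower dotted line, and no member lies above the upper one.

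The mitochondrial messages did not differ by the same factor. mt-Nd2, a membrane subunit of complex I, was at 827 CPM in the control and 562 CPM in the 4E-BP1–cKO library, a ratio of 0.680 (0.633 to 0.730), whereas mt-Nd4, a subunit of the same membrane arm, was at 747 and 753 CPM, a ratio of 1.01 (0.944 to 1.07). Ratios for mt-Nd2 were 0.641 (0.567 to 0.723) in ribosome-poor and 0.710 (0.650 to 0.775) in ribosome-rich cells, and for mt-Nd4 they were 0.976 (0.872 to 1.09) and 1.02 (0.945 to 1.11). Both classes of cells placed mt-Nd2 below mt-Nd4, but they are parts of the same libraries and no independent check of each other. The lowest ratio was that of mt-Atp8, a small subunit of ATP synthase, at 133 and 84.2 CPM (0.631, 0.523 to 0.756), followed after mt-Nd2 by mt-Nd4l at 268 and 190 CPM (0.707, 0.625 to 0.799). mt-Atp8 overlaps mt-Atp6, and mt-Nd4l overlaps mt-Nd4, on 1 shared message each. The counts of both genes of each message depend on how reads were assigned within it and are uncertain. mt-Atp6, the partner of mt-Atp8, was at 1465 and 1269 CPM (0.866, 0.825 to 0.909). As a share of mitochondrial-encoded UMIs, mt-Nd2 took 7.58% in control (7.36 to 7.81) and 5.93% in 4E-BP1–cKO cells (5.57 to 6.30), while mt-Nd4 took 6.86% (6.64 to 7.08) and 7.93% (7.52 to 8.36). Thus the order of mt-Nd2 and mt-Nd4 was exchanged between the libraries. This holds only with mt-Nd4 counted apart from mt-Nd4l, which took a further 2.46% in control and 2.0% in 4E-BP1–cKO cells on the same message.

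**Figure D2:**
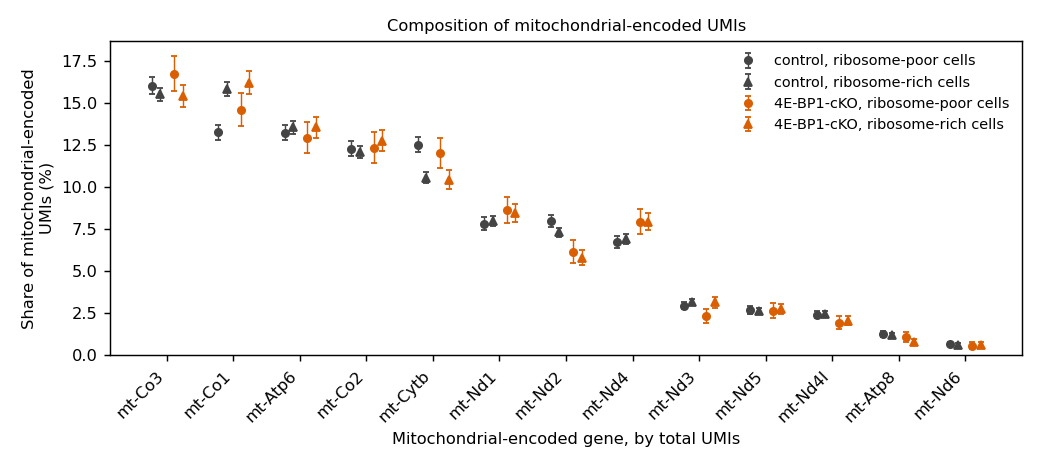
Share of mitochondrial-encoded UMIs (y axis, %) taken by each of the 13 mt- genes (x axis) in ribosome-poor (circles) and ribosome-rich (triangles) cells of each library, with 95% binomial intervals. mt-Nd2 is lower and mt-Nd4 higher in the 4E-BP1–cKO library in both classes, and mt-Co1 is higher and mt-Cytb lower in ribosome-rich cells of both libraries.

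Nuclear-encoded and mitochondrial-encoded members differed most when cells were compared by their ribosomal protein share. Nuclear-encoded members took 0.196% of UMIs in ribosome-poor and 0.576% in ribosome-rich control cells, 2.94-fold more (2.84 to 3.05), and 0.176% and 0.587% in 4E-BP1–cKO cells, 3.33-fold more (3.11 to 3.56). Mitochondrial-encoded members took 1.12% and 1.07% in control cells (0.958-fold, 0.941 to 0.975) and 0.929% and 0.958% in 4E-BP1–cKO cells (1.03-fold, 0.998 to 1.07). More than 1.5-fold in both libraries was reached by 70 of the 82 nuclear-encoded members with at least 20 UMIs, beside 13.9% of all genes, and by 52 of the 56 with at least 200 UMIs, beside 15.9%. Of the 13 mitochondrial-encoded members 0 reached it, and no member of either genome was more than 1.5-fold lower in both libraries, beside 12.6% of all genes. The median log2 fold over nuclear-encoded members was 1.6 in the control and 1.74 in the 4E-BP1–cKO library, and over all genes it was -0.11 and -0.07. Across the 82 nuclear-encoded members the log2 folds of the 2 libraries correlated with Pearson's r of 0.74 and Spearman's rho of 0.65, given as a description, since genes are not independent and the classes were cut by the same limit in both.

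By complex, the summed nuclear-encoded UMIs of complex IV were 3.64-fold higher in ribosome-rich control cells and 4.10-fold higher in ribosome-rich 4E-BP1–cKO cells. The values were 3.24-fold and 3.65-fold for complex III, 2.83-fold and 3.58-fold for complex V, 3.13-fold and 3.03-fold for the accessory subunits and 2.05-fold and 2.15-fold for the core subunits of complex I. Assembly factors of complex I, which help build the complex and leave it, stood at 0.935-fold (0.794 to 1.10) and 1.18-fold (0.867 to 1.63) in sum. The only 1 with at least 200 UMIs, Ndufaf7, had log2 folds of -0.72 and -0.48. Of the 8 factors, 3 were more than 1.5-fold higher in both libraries, beside 13.9% of all genes. Mitochondrial-encoded subunits of the same complexes stood at 0.953-fold and 1.05-fold for complex I, 0.808-fold and 0.894-fold for complex III, 1.0-fold and 1.05-fold for complex IV and 0.974-fold and 1.05-fold for complex V. Within each complex, the nuclear-encoded structural subunits were thus higher in ribosome-rich cells of both libraries, and their mitochondrial-encoded partners differed by less than 1.3-fold.

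Among members with at least 200 UMIs, the 5 largest mean log2 folds of both libraries belonged to Atp5e, Uqcr11, Atp5mpl, Cox8a and Cox7a2. Atp5e, the epsilon subunit of ATP synthase, was at 37.0 CPM in ribosome-poor and 191 CPM in ribosome-rich control cells (5.17-fold, 4.02 to 6.74), and at 19.7 and 202 CPM in 4E-BP1–cKO cells (10.2-fold, 5.62 to 20.8). Atp5mpl, a small proteolipid of the same enzyme, was at 18.2 and 88.8 CPM (4.87-fold) in control and at 12.6 and 83.3 CPM (6.63-fold) in 4E-BP1–cKO cells. Uqcr11, a small subunit of complex III, gave 16.1 and 77.3 CPM (4.80-fold) and 10.8 and 79.0 CPM (7.34-fold). Cox8a gave 52.5 and 233 CPM (4.44-fold) and 39.5 and 240.4 CPM (6.09-fold), and Cox7a2 gave 22.0 and 85.8 CPM (3.90-fold) and 14.4 and 99.4 CPM (6.92-fold). Cox7a2l, a factor that joins complexes III and IV into supercomplexes, was at 32.2 and 173 CPM (5.36-fold) and at 48.5 and 184 CPM (3.80-fold). Below this depth the accessory subunit gene Ndufs6, with 135 UMIs, gave 9.95-fold (4.4 to 27.8) in control and 7.81-fold (2.0 to 67.2) in 4E-BP1–cKO cells.

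Several nuclear-encoded members did not share this difference. The 4 members with at least 200 UMIs that stayed under 1.5-fold in at least 1 library were Atp5a1, Ndufa10, Ndufs4 and Ndufaf7. Atp5a1, the alpha subunit of the catalytic head of ATP synthase, was at 93.3 and 134 CPM in control cells (1.44-fold, 1.20 to 1.73) and at 108 and 133 CPM in 4E-BP1–cKO cells (1.24-fold, 0.914 to 1.70). Ndufs4, an accessory subunit late in the assembly of complex I, was at 46.1 and 44.9 CPM (0.974-fold, 0.737 to 1.29) and at 46.7 and 51.0 CPM (1.09-fold, 0.679 to 1.80). Ndufa10, an accessory subunit of complex I, gave 1.5-fold (1.05 to 2.19), just under the limit with the pseudocount, and 1.07-fold (0.576 to 2.06). Ndufaf7, an assembly factor of complex I, was at 61.7 CPM in ribosome-poor and 37.1 CPM in ribosome-rich control cells (0.602-fold, 0.459 to 0.789). In 4E-BP1–cKO cells it stood at 46.7 and 33.1 CPM (0.710-fold, 0.421 to 1.22). Core subunits of complex I were split. Ndufs7 and Ndufs8, which carry iron-sulfur clusters near the ubiquinone site, were 3.16-fold and 3.24-fold higher in ribosome-rich control cells and 4.94-fold and 3.87-fold higher in ribosome-rich 4E-BP1–cKO cells. Ndufs1, the largest core subunit, stood at 26.3 and 25.5 CPM (0.972-fold, 0.669 to 1.42) in control and at 25.1 and 24.6 CPM (0.981-fold, 0.502 to 2.01) in 4E-BP1–cKO cells.

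**Figure D3:**
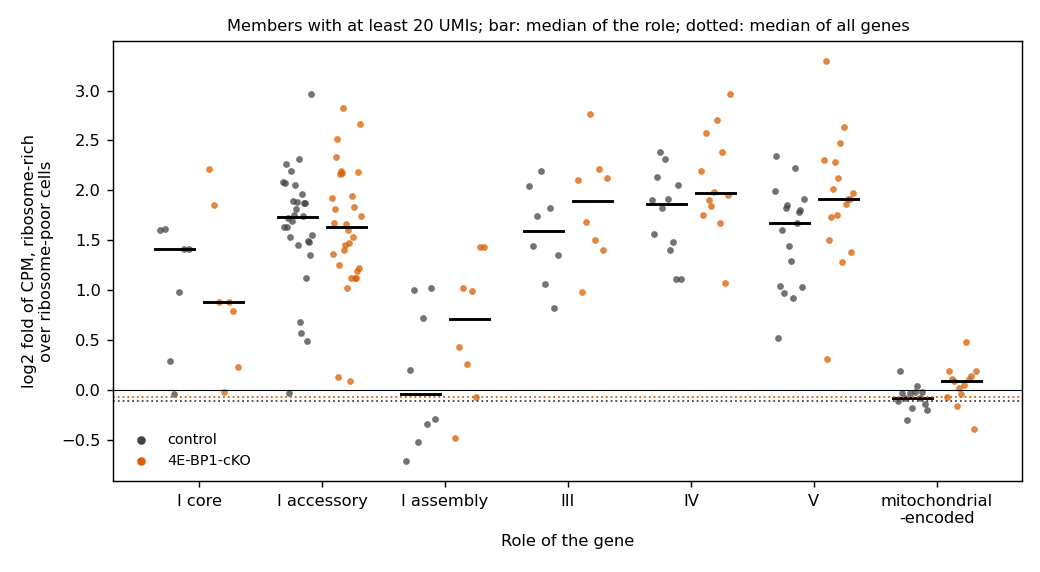
Log2 fold of CPM in ribosome-rich over ribosome-poor cells (y axis) for each member with at least 20 UMIs, by role (x axis) and library (gray, control; orange, 4E-BP1–cKO). Medians of complexes III, IV and V and of complex I accessory subunits (black bars) lie between 1.59 and 1.97, those of mitochondrial-encoded genes at -0.08 and 0.09, and those of all genes (dotted lines) at -0.11 and -0.07.

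Finer classes gave different courses for the 2 genomes. From cells under 1.5% ribosomal share over the bins 1.5 to 3%, 3 to 6%, 6 to 12% and 12% or more, nuclear-encoded members took 0.158%, 0.272%, 0.459%, 0.601% and 0.95% of UMIs in the control library and 0.142%, 0.244%, 0.463%, 0.588% and 0.838% in the 4E-BP1–cKO library. They were higher in each bin than in the one before in both libraries. Of the 56 nuclear-encoded members with at least 200 UMIs, 28 were higher in every step in both libraries, and 37 had their highest level in the last bin of both. Mitochondrial-encoded members took 1.10%, 1.17%, 0.685%, 1.23% and 2.0% in the control library and 1.03%, 0.725%, 0.516%, 1.03% and 1.68% in the 4E-BP1–cKO library. Each of the 13 mt- genes was lowest in the bin of 3 to 6% in both libraries, and 11 of the 13 were highest at 12% or more in both. For example, mt-Co1, the catalytic subunit of complex IV, went through 1469, 1519, 1095, 1988 and 2998 CPM in the control library, and Cox4i1 of the same complex through 55.1, 103, 179, 291 and 530 CPM. Counts of genes by their order over the bins were taken for members only. No share over all genes stands beside them, and whether these courses are particular to members was not tested. The last bin rests on 52 control and 36 4E-BP1–cKO cells.

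**Figure D4:**
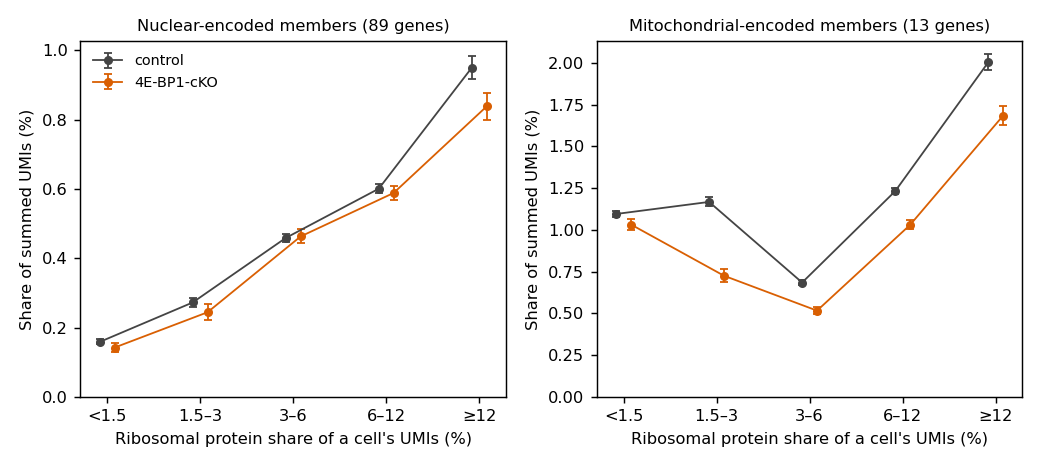
Share of summed UMIs (y axes, %) on the 89 nuclear-encoded (left) and 13 mitochondrial-encoded members (right) by the ribosomal protein share of the cell (x axes, %), in the control (gray) and 4E-BP1–cKO (orange) libraries, with 95% binomial intervals. The nuclear-encoded share is higher in each bin than in the one before, and the mitochondrial-encoded share is lowest at 3 to 6% in both libraries.

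The balance of the 2 genomes moved accordingly. For each nuclear-encoded UMI there were 5.72 mitochondrial-encoded UMIs in ribosome-poor control cells (5.52 to 5.92) and 1.86 in ribosome-rich control cells (1.83 to 1.90), and the values were 5.27 (4.92 to 5.64) and 1.63 (1.58 to 1.68) in 4E-BP1–cKO cells. Over the 5 bins it was 6.92, 4.29, 1.49, 2.05 and 2.11 in the control library and 7.27, 2.97, 1.12, 1.75 and 2.01 in the 4E-BP1–cKO library. Complex IV had the highest balance, at 10.9 in ribosome-poor and 2.99 in ribosome-rich control cells and 10.1 and 2.58 in 4E-BP1–cKO cells. Complex V, with only mt-Atp6 and mt-Atp8 in the mitochondrial genome, had the lowest, at 2.67 and 0.918 and at 2.68 and 0.789. Complex I gave 5.88 and 1.92 and 4.70 and 1.72, and complex III, whose only mitochondrial-encoded subunit is mt-Cytb, gave 7.41 and 1.85 and 6.36 and 1.56. In each complex and library the balance was therefore lower in ribosome-rich cells.

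**Figure D5:**
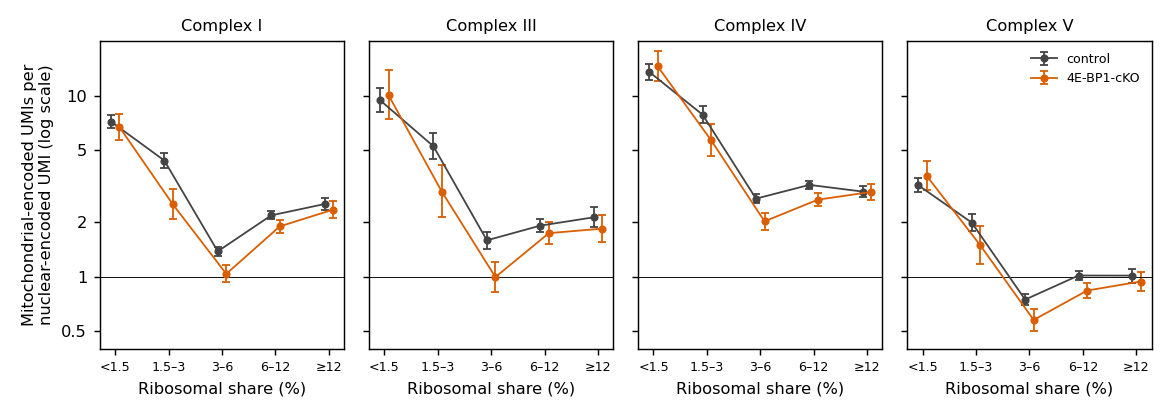
Mitochondrial-encoded UMIs per nuclear-encoded UMI (y axis, log scale) of complexes I, III, IV and V by the ribosomal protein share of the cell (x axes, %) in each library, with 95% conditional Poisson intervals. In each panel the balance is highest in cells under 1.5% and lowest in cells of 3 to 6%, in both libraries.

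The limit of 5% on mitochondrial UMIs was part of the choice of cells and cuts the upper end of the mitochondrial values. It removed 63 control and 23 4E-BP1–cKO barcodes with more than 300 genes, in which the median mitochondrial share was 9.52% and 10.2%. Of these, 40 and 15 were ribosome-rich. Without the limit the mitochondrial-encoded UMIs per nuclear-encoded UMI were 6.77 in ribosome-poor and 2.22 in ribosome-rich control cells and 6.13 and 1.87 in 4E-BP1–cKO cells. The mitochondrial-encoded difference between the ribosomal classes was small at the 3% limit and turned with it. At a limit of 2% the log2 fold was -0.13 in the control and -0.25 in the 4E-BP1–cKO library, and at 5% it was 0.40 and 0.47. The nuclear-encoded log2 folds were 1.72 and 1.92 at 2% and 1.26 and 1.35 at 5%.

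Other features of the cells moved with the ribosomal share. Median UMIs per cell were 2354 in ribosome-poor and 5512.5 in ribosome-rich control cells and 1964 and 4735.5 in 4E-BP1–cKO cells. In cells of 2000 to 6000 UMIs the nuclear-encoded log2 fold was 2.01 in the control and 2.19 in the 4E-BP1–cKO library, larger than over all depths. With each cell of at least 872 UMIs thinned to that number, and shallower cells left out, it was 1.73 and 2.10. Malat1, a long RNA kept in the nucleus, took 4.68% of UMIs in ribosome-poor and 2.74% in ribosome-rich control cells and 4.71% and 3.18% in 4E-BP1–cKO cells, and Neat1, another nuclear RNA, had log2 folds of -0.28 and -0.75. The 17 early genes of tissue handling, such as Jun and Ccl4, took 1.77% and 2.98% in control and 1.99% and 3.85% in 4E-BP1–cKO cells. Cells with markers of other types were mostly ribosome-rich, as in the control library 4 of 5 for oligodendrocytes, 4 of 4 for endothelial cells and 3 of 3 for erythrocytes, of 490 ribosome-rich cells. The 9 microglial markers took 0.781% and 1.47% in control and 0.792% and 1.39% in 4E-BP1–cKO cells. Their median log2 fold was 0.74 in control and 0.54 in 4E-BP1–cKO cells. Single markers ran from -0.14 to 1.90 and from 0.13 to 1.61, and C1qa, at 1.46 and 1.21, lay well above the median. In counts, the 657 ribosome-poor control cells held 3651 nuclear-encoded and 20876 mitochondrial-encoded UMIs, and the 490 ribosome-rich ones held 16929 and 31491. In the 4E-BP1–cKO library 211 ribosome-poor cells held 983 and 5176, and 234 ribosome-rich cells held 6912 and 11274. Captured molecules of both genomes were thus fewer per ribosome-poor cell. From the shares alone, fewer molecules of a message per cell and a larger amount of other RNA cannot be told apart, and the part of RNA quality, depth and handling in the difference was not tested.

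Lists of genes of the same organelle outside the rule gave smaller folds in sum than all nuclear-encoded members together (2.94-fold in control and 3.33-fold in 4E-BP1–cKO cells), though not smaller than each role within the rule. The 4 genes of complex II were 1.88-fold higher (1.55 to 2.28) in ribosome-rich control cells and 2.11-fold higher (1.5 to 3.04) in ribosome-rich 4E-BP1–cKO cells. Among them Sdhb, the iron-sulfur subunit, was at 20.4 and 55.8 CPM and at 23.3 and 58.6 CPM, and Sdha, the flavoprotein subunit, at 32.2 and 43.2 CPM and at 35.9 and 51.0 CPM. The membrane anchors Sdhc and Sdhd gave log2 folds of 0.90 and 0.77 in control and 1.26 and 1.91 in 4E-BP1–cKO cells. Cycs, which encodes cytochrome c, and Cyc1, a heme-bearing subunit of complex III, were 2.46-fold and 2.80-fold higher in sum. The 78 genes of the mitochondrial ribosome gave 1.66-fold and 1.91-fold, with 45 of 78 past 1.5-fold in both libraries, beside 13.9% of all genes. Its 2 most abundant messages did not share this, with log2 folds of -0.18 and -0.13 for Mrps6 and of -0.27 and -0.48 for Mrps28. The import machinery had 12 of 24 genes past 1.5-fold. Its 2 most abundant messages, Tomm20 and Tomm7, encode parts of the outer membrane translocase, and they were at 41.3 and 21.4 CPM in ribosome-poor and 95.6 and 110.3 CPM in ribosome-rich control cells, with log2 folds of 2.18 and 2.80 in 4E-BP1–cKO cells. Of the 13 genes of the tricarboxylic acid cycle 5 were past 1.5-fold in both libraries (Suclg1, Sucla2, Idh3a, Idh3g and Dld), and the median log2 folds were 0.30 and 0.64. The 2 most abundant, Suclg2 and Ogdh, had log2 folds of -0.07 and -0.23 in control and 0.09 and -1.02 in 4E-BP1–cKO cells. Of 16 genes of mitochondrial transcription and biogenesis 2 were higher (Tfam and Slirp) and 2 lower (Nrf1 and Esrra) past 1.5-fold in both libraries, which is near the 13.9% and 12.6% of all genes and no result about this list. Its 2 most abundant genes encode transcription factors, of which Nrf1 was at 115 and 63.6 CPM in control and 77.2 and 41.6 CPM in 4E-BP1–cKO cells, and Yy1 was at 131 and 136 CPM and at 138 and 158 CPM. The proteasome subunits, a compared list outside mitochondria, gave 1.63-fold and 1.72-fold, although Psmd11 and Psma3, its most abundant messages, had log2 folds of -0.26 and 0.41 in control and 0.07 and 0.19 in 4E-BP1–cKO cells, and the ribosomal proteins, which define the classes, gave 5.24-fold and 5.90-fold, with Rps29 and Rplp1 as the most abundant.

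Genes of nuclear-encoded members are short, and short genes in general were higher in ribosome-rich cells. Across the 82 nuclear-encoded members the span of the gene and its log2 fold had a Spearman's rho of -0.36 in the control and -0.31 in the 4E-BP1–cKO library, and across 11028 other genes it was -0.46 and -0.42, both as descriptions. The 25 members that span under 5 kb had a median log2 fold of 1.74 and 1.92, and the 1136 other genes under 5 kb had 0.68 and 0.76. The 9 members of 20 to 50 kb had 0.49 and 1.12, against -0.12 and -0.11 for 3205 other genes. The median of members lay above that of other genes in these classes of span in both libraries. Other genes were grouped by span only and not by level, and the part of gene span in the difference was not tested. Members named above for a small or absent difference include long genes, such as Ndufs4, which spans 100 kb, Ndufs1 with 33.2 kb and Ndufa10 with 34.3 kb, but also Atp5a1 with 9.10 kb and Ndufaf7 with 10.9 kb.

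Promoters of the members were read from RefSeq (GRCm38.p6, from 250 bases before to 50 bases after each start) for 73 of the 89 nuclear-encoded members, which gave 78 promoters. The factor NRF1 is known to regulate many nuclear genes of the respiratory chain. Its core letters GCATGCGC, sought on both strands, were found in 14.1% of these promoters and in 2.71% of all 32851 promoters. The letters CCGGAAG, read by ETS factors such as GABPA, were found in 21.8% and 8.86%, the letters AAGATGGCG, read by YY1, in 10.3% and 1.40%, and the letters TATAAA in 11.5% and 13.6%. The 32851 promoters were not matched to those of members by level or base content. Whether these shares are particular to members was therefore not tested. Windows of 100 bases before the start are shown for the 5 members in which the NRF1 letters fall wholly in this window, as examples of where the letters lie, although 62 of the 73 members do not carry them in their promoters. Capitals mark the letters GCATGCGC on either strand, and where the 2 strands overlap in a palindrome the whole of it is in capitals. The windows lie at chr15:102671048-102671147 on the minus strand for Atp5g2, at chr5:108434400-108434499 on the minus strand for Atp5k, at chr17:56717662-56717761 on the plus strand for Ndufa11, at chr15:82354292-82354391 on the minus strand for Ndufa6 and at chr2:36049339-36049438 on the minus strand for Ndufa8, and each is written 5′ to 3′ toward the start of the gene.
Atp5g2: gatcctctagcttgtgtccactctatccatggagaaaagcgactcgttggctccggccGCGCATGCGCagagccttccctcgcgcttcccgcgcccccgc
Atp5k: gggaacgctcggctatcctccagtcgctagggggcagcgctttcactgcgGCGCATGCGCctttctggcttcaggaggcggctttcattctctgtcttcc
Ndufa11: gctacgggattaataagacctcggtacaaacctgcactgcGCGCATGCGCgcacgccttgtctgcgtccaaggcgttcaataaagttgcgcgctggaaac
Ndufa6: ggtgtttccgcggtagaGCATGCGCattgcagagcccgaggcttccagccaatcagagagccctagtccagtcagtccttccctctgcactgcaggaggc
Ndufa8: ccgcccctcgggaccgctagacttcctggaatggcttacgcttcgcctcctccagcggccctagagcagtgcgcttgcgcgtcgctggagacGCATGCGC
In Atp5g2, Atp5k and Ndufa11 the letters form a palindrome that lies 32, 40 and 50 bases before the start, in Ndufa6 a single match lies 75 bases before it, and in Ndufa8 the match ends at the start. Members with these letters did not stand apart in the comparison by ribosomal share. The median log2 fold, as the mean of both libraries, was 1.67 over 11 members with the letters and 1.75 over 58 without them, among those with at least 20 UMIs, and a match in a sequence is not evidence of binding.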

How the data were processed

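Sorted spinal microglia of 1 control and 1 4E-BP1–cKO library were measured by droplet scRNA-Seq (10x Chromium, 3′ end). The authors aligned reads to mm10 with Cell Ranger (version 8.0.1 in the headers of the tables) and deposited UMI counts of genes in called cells, raw and not normalized. Whether intronic reads were counted, and how reads shared by overlapping genes or by nuclear copies of mitochondrial sequence were assigned, was not given in the sources used here. The authors' own quality limits were applied again: over 300 genes per barcode and a mitochondrial share below 5%. scDblFinder, with which the authors then removed doublets, was not run. More cells of each library were kept here than by the authors, and whether that step alone accounts for this was not tested. Removal of the 4 control and 11 4E-BP1–cKO cells called by Scrublet (scanpy 1.11.5) was an alternative, and it left more cells than the authors kept.

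UMIs were summed over cells per library and class of ribosomal protein share (86 genes, limit 3%), and CPM, log2 ratios with a pseudocount of 1 CPM, exact conditional Poisson intervals of ratios and exact Clopper-Pearson intervals of shares were computed in Python 3.11.15 (numpy 2.4.6, scipy 1.17.1, pandas 2.3.3). Printed folds are ratios of CPM without the pseudocount. A gene was called past 1.5-fold on the log2 scale with the pseudocount, given at least 20 UMIs over both libraries. The steps were tested on simulated data. TMM factors came from edgeR 4.0.16 (R 4.3.3). Floors for genes without a UMI use 3 counts. Positions and promoters came from RefSeq on GRCm38.p6, the build of mm10.

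The members and gene lists were chosen with earlier results of these data known. The 3% limit was too, since it lies between clusters of low and of usual ribosomal share in an earlier report of these data. Named members are the 13 mt- genes, the 3 members with most UMIs in each role, the complex I core, tissue-specific forms, and, at 200 or more UMIs, the 5 highest and 5 lowest in each comparison. Complex II, Cycs, Cyc1, Malat1 and the 2 genes with most UMIs of each other list were named, except where a gene is not reported here. Ndufaf1, Ndufaf5, Ndufs6, Tmem119, Ndufs4, Ndufa10, Cox7b2, Suclg1, Sucla2, Idh3a, Idh3g, Dld, Tfam, Slirp, Esrra, Hspa1a and Hspa1b were named after their values were seen, and Atp5k, Ndufa11, Ndufa6 and Ndufa8 for their promoter letters. Cells are not replicates, so no p-value was computed.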

Additional observations from a re-analysis of the deposited data

How the results depend on the processing

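No paired analysis was possible because there was 1 library per genotype, and leaving out a replicate was not possible for the same reason. The difference between ribosomal classes in nuclear-encoded members kept its direction under each alternative run, and the difference between the libraries in mitochondrial-encoded members did too. The nuclear-encoded difference between the libraries did not, and the mitochondrial-encoded difference between the classes did not. The cause of these changes was not tested. Depth limits members under 200 UMIs, whose intervals often include no difference. Of 702 values computed for 54 named members in the comparison of libraries 46 moved beyond their interval, and of 702 in the comparison of classes 62 did, with 0 reversed past the limit of a call.

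Between the libraries, the nuclear-encoded log2 ratio of 0.09 was 0.14 with TMM factors, 0.21 with cells thinned to 872 UMIs, 0.028 in ribosome-rich cells, -0.14 in ribosome-poor cells and -0.10 as a mean over bins of ribosomal share. Thinning also left out cells with fewer than 872 UMIs, 89 of 1147 in the control and 70 of 445 in the 4E-BP1–cKO library, so the thinned values rest on a different set of cells. The mitochondrial-encoded log2 ratio of -0.20 was -0.24 without a mitochondrial limit, -0.17 without Scrublet doublets, -0.14 with TMM factors, -0.34 as a mean over bins, -0.27 in ribosome-poor cells, -0.16 in ribosome-rich cells and -0.17 after thinning. The 0 members above 1.5-fold became 2 in ribosome-poor cells, 1 in ribosome-rich cells and 12 after thinning. The 3 below became 1 with a pseudocount of 10 CPM, 5 with no minimum of UMIs, 1 at 200 or more UMIs, 14 over bins, 15 in ribosome-poor cells and 6 after thinning. The minimum of 20 UMIs was taken over the cells compared, which left 88 members in ribosome-poor cells and 86 after thinning. The shares of all genes above and below were 7.99% and 15.0% in ribosome-poor cells, 5.0% and 11.7% in ribosome-rich cells, 10.0% and 14.8% after thinning and 4.0% and 19.2% over bins, and those below were 2.15% with a pseudocount of 10 CPM, 10.3% with no minimum and 3.21% at 200 or more UMIs.

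Between ribosome-rich and ribosome-poor cells, the nuclear-encoded log2 folds of 1.56 (control) and 1.74 (4E-BP1–cKO) were 1.65 and 1.84 on CPM outside ribosomal protein and mt- genes, 1.70 and 1.87 with TMM factors, 1.73 and 2.10 after thinning, 1.72 and 1.92 at a limit of 2%, 1.26 and 1.35 at 5%, 2.01 and 2.19 in cells of 2000 to 6000 UMIs and 1.62 (control) over members with 200 or more UMIs. The mitochondrial-encoded log2 folds of -0.06 and 0.04 were -0.26 and -0.13 with a mitochondrial limit of 10%, 0.030 and 0.15 outside ribosomal protein and mt- genes, 0.080 and 0.18 with TMM factors, -0.30 and -0.28 after thinning, -0.13 and -0.25 at 2%, 0.40 and 0.47 at 5% and -0.35 and -0.55 at 2000 to 6000 UMIs.

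Mitochondrial-encoded UMIs per nuclear-encoded UMI, 5.72 in ribosome-poor and 1.86 in ribosome-rich control cells and 5.27 and 1.63 in 4E-BP1–cKO cells, were 6.70, 1.91 and 6.13 (4E-BP1–cKO, ribosome-poor) with a mitochondrial limit of 10%, 6.77, 2.22, 6.13 and 1.87 without one, 7.27, 1.43, 8.0 and 1.20 at 2000 to 6000 UMIs, 5.47, 1.78 and 1.57 (4E-BP1–cKO, ribosome-rich) without mt-Atp8, mt-Nd4l and mt-Nd6, and 6.14 and 1.90 in the control library over structural subunits only.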
